A study of Mus musculus with 12 samples.

Results

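The genes described here are 49 genes of DNA replication, followed through the growth of the mouse upper jaw. They were taken from a list of origin licensing, helicase, polymerase, clamp and nucleotide genes, and their Ensembl identifiers were matched to mouse symbols. All 49 were found among the 53801 genes listed in each library, and all 49 passed the filter on low counts that left 18365 genes for testing. The tissue was the maxillary prominence, the paired facial bud of neural crest mesenchyme and covering epithelium that forms the upper jaw and the secondary palate. It was dissected from wild type C57BL/6 embryos at 4 embryonic stages, E10.5, E11.5, E12.5 and E14.5. Each stage has 3 bulk RNA-seq libraries, and no group carries a treatment or a mutant allele. Per the labels, RNA came from the prominences of 7 littermates, and the 3 RNA samples of a stage were prepared independently, so a library is a pool and no embryo can be followed on its own. One E14.5 library, replicate 1, carries a title that names 2 parts of that replicate. The E14.5 samples carry record numbers in a block apart from those of the earlier stages. Any difference in handling between these blocks cannot be told apart from stage in comparisons with E14.5.

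Replication starts in G1 phase, when the origin recognition complex, Cdc6 and Cdt1 load the Mcm2 to Mcm7 ring onto DNA as an inactive helicase. Cdc45 and the GINS complex then join the ring and open the fork, primase and polymerase alpha lay down primers, and polymerases delta and epsilon extend them while held by PCNA, the sliding clamp that replication factor C (RFC) loads. Many of these genes are transcribed at the start of S phase through E2F factors, which retinoblastoma-family pocket proteins hold back in resting cells. The growing facial prominences are known for rapid proliferation before their mesenchyme differentiates into bone, cartilage and connective tissue.

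The libraries held between 28294837 and 33941430 counts in genes. The 49 replication genes together took 0.776% ± 0.0365 (SD, n = 3) of these counts at E10.5, 0.702% ± 0.024 at E11.5, 0.502% ± 0.027 at E12.5 and 0.418% ± 0.0139 at E14.5. The share of alignments that fell outside annotated genes moved with stage as well. It was 2.67%, 1.92% and 4.88% in E10.5 replicates 1, 2 and 3, between 2.16% and 2.42% at E11.5, between 5.03% and 5.43% at E12.5 and between 5.78% and 6.21% at E14.5. E10.5 replicate 3 therefore stood apart from its stage, close to the later libraries. The defining mesenchyme markers were present at every stage, with a summed level over 7 genes from 1150 to 2128 CPM (counts relative to library size, here scaled by TMM). In bulk tissue, fewer cells in cycle and less replication RNA per cell cannot be told apart, and this holds for every difference below.

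**Figure D1:**
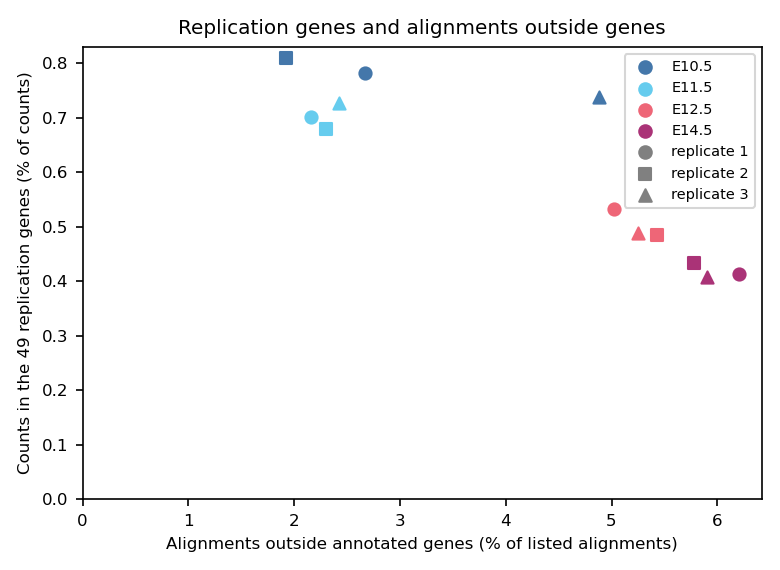
Share of all counts in the 49 replication genes (vertical axis, % of counts) against the share of alignments outside annotated genes (horizontal axis, % of listed alignments), 1 point per library, with colour for stage and shape for replicate. E10.5 replicate 3 lies at 4.88% outside genes with 0.737% of counts in replication genes, above every E12.5 library, of which the highest is at 0.533%.

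Since E2F factors are the textbook regulators of this gene set, its promoters were read from RefSeq (mouse build GRCm38.p6, 250 bases before to 50 after each start), where 40 of the 49 genes had an entry. The genes named only are Rfc2, Ccne2, Gmnn, Pole, Gins1, Gins4, Mcm4, Prim2 and Gins2. The search took the E2F-type words TTTCGCGC, TTTGGCGC, TTTCCCGC and TTTGCCGC on both strands, counting overlapping matches separately. At least 1 word was present in 14 of 40 replication genes (35.0%), against 4.28% of the 12709 tested genes with a promoter and 2.6% of all 27025 genes in the table. The 3 printed next were chosen after their values were seen, because they hold 2 or more matches. Capitals mark the matched words.
Mcm5, chr8:75109336-75109387, plus strand: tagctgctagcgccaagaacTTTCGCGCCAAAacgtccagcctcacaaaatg
Mcm6, chr1:128359725-128359835, minus strand: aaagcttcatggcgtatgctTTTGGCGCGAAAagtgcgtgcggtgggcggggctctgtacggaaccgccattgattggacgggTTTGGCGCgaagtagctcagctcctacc
Rfc3, chr5:151651181-151651238, minus strand: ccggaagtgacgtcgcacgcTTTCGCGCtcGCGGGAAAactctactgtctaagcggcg
In Mcm5 a run of 12 capitals holds a word on each strand, overlapping in the middle, and Mcm6 has the same arrangement in reverse order with another word closer to the start. Mcm3 and Mcm7 also held 2 matches each, so 4 of the 5 Mcm2 to Mcm7 genes with an entry had at least 2, and Mcm2 had none. Cdc6, Cdt1, Orc1, Gins3, Lig1, Pola1, Pold1, Pold3 and Pole2 held 1 match each.

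The promoters of the genes with the largest and smallest changes over the whole course are shown to set their letters side by side. Fen1, Rrm2 and Rpa3 had the largest changes among genes with an entry, and Pold1 and E2f1 the smallest. Fen1 has 2 entries, and the letters at the end of the one shown were found in 3 of its 4 annotated transcripts. The E2f1 window lies inside the longer gene model of the annotation used for lengths. The bases before the start of that model were therefore not searched, and E2f1 counts below as a gene without a word.
Fen1, chr19:10203872-10204171, minus strand: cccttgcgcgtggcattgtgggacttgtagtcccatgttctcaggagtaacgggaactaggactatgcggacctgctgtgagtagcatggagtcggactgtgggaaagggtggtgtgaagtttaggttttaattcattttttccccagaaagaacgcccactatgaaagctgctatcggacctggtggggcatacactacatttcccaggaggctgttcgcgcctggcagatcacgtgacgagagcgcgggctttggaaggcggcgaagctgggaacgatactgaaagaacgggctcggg
Rrm2, chr12:24708004-24708303, plus strand: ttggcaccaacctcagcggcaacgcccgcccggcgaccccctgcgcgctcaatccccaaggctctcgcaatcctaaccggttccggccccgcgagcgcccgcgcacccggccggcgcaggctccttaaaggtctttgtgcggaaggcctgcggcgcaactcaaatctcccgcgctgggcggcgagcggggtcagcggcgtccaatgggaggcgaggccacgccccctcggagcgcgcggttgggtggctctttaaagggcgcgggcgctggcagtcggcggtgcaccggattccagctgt
Rpa3, chr6:8259092-8259391, minus strand: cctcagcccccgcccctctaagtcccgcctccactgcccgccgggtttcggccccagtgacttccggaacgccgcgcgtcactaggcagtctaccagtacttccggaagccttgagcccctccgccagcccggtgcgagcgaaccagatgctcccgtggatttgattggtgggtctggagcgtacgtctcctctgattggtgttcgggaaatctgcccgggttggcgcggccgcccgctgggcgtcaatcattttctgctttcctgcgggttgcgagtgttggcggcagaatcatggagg
Pold1, chr7:44548766-44549065, minus strand: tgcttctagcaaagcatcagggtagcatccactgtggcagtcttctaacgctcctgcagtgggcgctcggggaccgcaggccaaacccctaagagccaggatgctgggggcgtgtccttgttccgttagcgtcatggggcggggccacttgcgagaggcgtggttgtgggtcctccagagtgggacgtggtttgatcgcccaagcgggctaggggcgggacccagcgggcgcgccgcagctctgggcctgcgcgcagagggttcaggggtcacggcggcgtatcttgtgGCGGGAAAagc
E2f1, chr2:154569377-154569676, minus strand: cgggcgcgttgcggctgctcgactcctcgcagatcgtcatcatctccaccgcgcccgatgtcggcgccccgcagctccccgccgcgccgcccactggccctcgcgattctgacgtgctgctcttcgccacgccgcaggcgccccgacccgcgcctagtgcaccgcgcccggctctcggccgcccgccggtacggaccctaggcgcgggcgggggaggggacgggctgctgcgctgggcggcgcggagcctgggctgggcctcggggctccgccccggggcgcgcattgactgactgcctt
Within these 5 windows, only that of Pold1 held an E2F-type word, in capitals near its 3′ end, read there on the opposite strand. The 14 genes with a word had a median log2 fold change of -0.95 from E10.5 to E14.5, and the 26 without one had -1.29, with overlapping ranges (-1.77 to -0.60 and -2.84 to 0.21). From E11.5 to E12.5 both medians were -0.66. Whether the genes with and without a word differ was not tested. CCAAT is the word read by the factor NF-Y. It was present in 60.0% of replication promoters, 42.1% of tested genes and 85.0% of 20 promoters of G2 and M phase genes. TTTGAA, a core word of mitotic gene promoters, was present in 12.5% of replication promoters, 14.7% of tested genes and 70.0% of 20 promoters of G2 and M phase genes.

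Levels below are CPM scaled by TMM (a correction for differences in RNA composition between libraries). Differences are log2 fold changes from edgeR's quasi-likelihood test with its standard error (SE), called at a Benjamini-Hochberg adjusted p under 0.05 over all 18365 genes. Over the whole course, from E10.5 to E14.5, 48 of the 49 replication genes fell and 1, E2f1, rose, where 33.8% of all tested genes were lower and 36.6% higher. The median log2 fold change of the 49 genes was -1.12, against 0.06 over all tested genes, and 31 fell at least 2-fold, against 12.6% of tested genes. In all 48 genes that fell, every E14.5 library was below every E10.5 library, which held for 36.2% of tested genes. A difference among the 4 stages was called for all 49, with 81.6% of tested genes called. The mean level was highest at E10.5 in 39 genes, at E11.5 in 9 and at E14.5 in 1, and lowest at E14.5 in 46 and at E12.5 in 3.

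The counts of genes that fell differed between the steps, and they depend on how the share of alignments outside genes is treated. From E10.5 to E11.5, 10 genes fell and none rose (12.9% of tested genes lower, 12.2% higher; 19 of the 49 had an unadjusted p under 0.05), with a median of -0.13 against -0.04 over all tested genes. From E11.5 to E12.5, 47 fell and none rose (22.2% lower, 27.1% higher; 47 with an unadjusted p under 0.05), with a median of -0.66 against 0.06. From E12.5 to E14.5, 34 fell and 1 rose (24.0% lower, 23.0% higher), with a median of -0.35 against -0.01. When that share entered as a covariate, the 3 steps gave 18, 3 and 28 lower, with medians of -0.21, -0.36 and -0.29. In that fit 12.1%, 1.56% and 22.0% of all tested genes were lower, with medians of -0.033, 0.035 and -0.034. The 10 genes that fell first were Ccne1, Orc1, Fen1, Dut, Mcm10, Cdt1, Rrm2, Orc2, Pold3 and Mcm2. Of these, Ccne1, Orc1, Dut, Mcm10, Cdt1 and Orc2 were called whichever single library was left out. At the first step 1 of 9 polymerase genes and 1 of 11 clamp genes were called, close to the background, and 4 of 12 licensing genes. Every library of the later stage lay below every library of the earlier one in 18 genes at the first step, 47 at the second and 33 at the third, where 22.4%, 26.6% and 27.3% of tested genes did so. The count of 34 at the third step went to 22 without E14.5 replicate 3 and to 25 without E14.5 replicate 1.

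**Figure D2:**
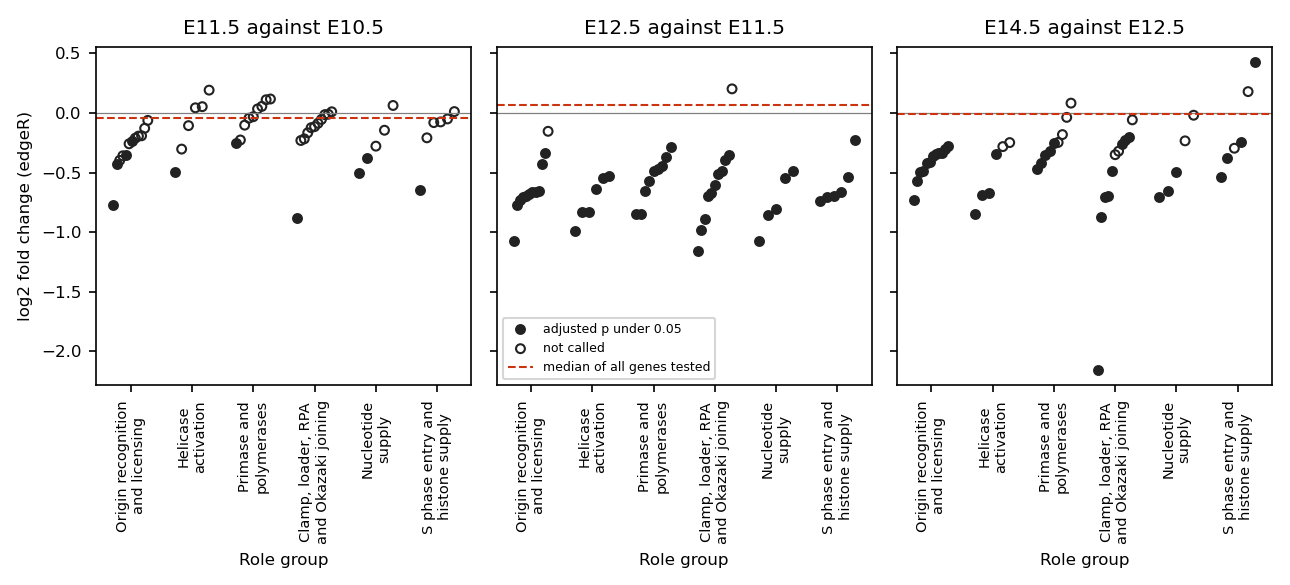
Log2 fold change from edgeR at each of the 3 steps (vertical axis) for every replication gene, 1 point per gene, in 6 role groups (horizontal axis), with filled points for an adjusted p under 0.05 and a dashed line at the median of all tested genes. At E12.5 against E11.5, 47 points are filled and below 0, and at E14.5 against E12.5 the highest filled point is E2f1 at 0.43.

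By pattern, 26 genes were called lower at the second and the third step only, 12 at the second step only and 6 at all 3 steps, where 1.38% of tested genes were lower at all 3. The 6 were Orc2, Mcm2, Mcm10, Pold3, Rrm2 and Dut. Orc1 and Ccne1 were called lower at the first and second steps, Cdt1 and Fen1 at the first and the third. E2f1 was lower at the second step and higher at the third. These patterns are counts of calls, and a difference between the steps of 1 gene was not itself tested.

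**Figure D3:**
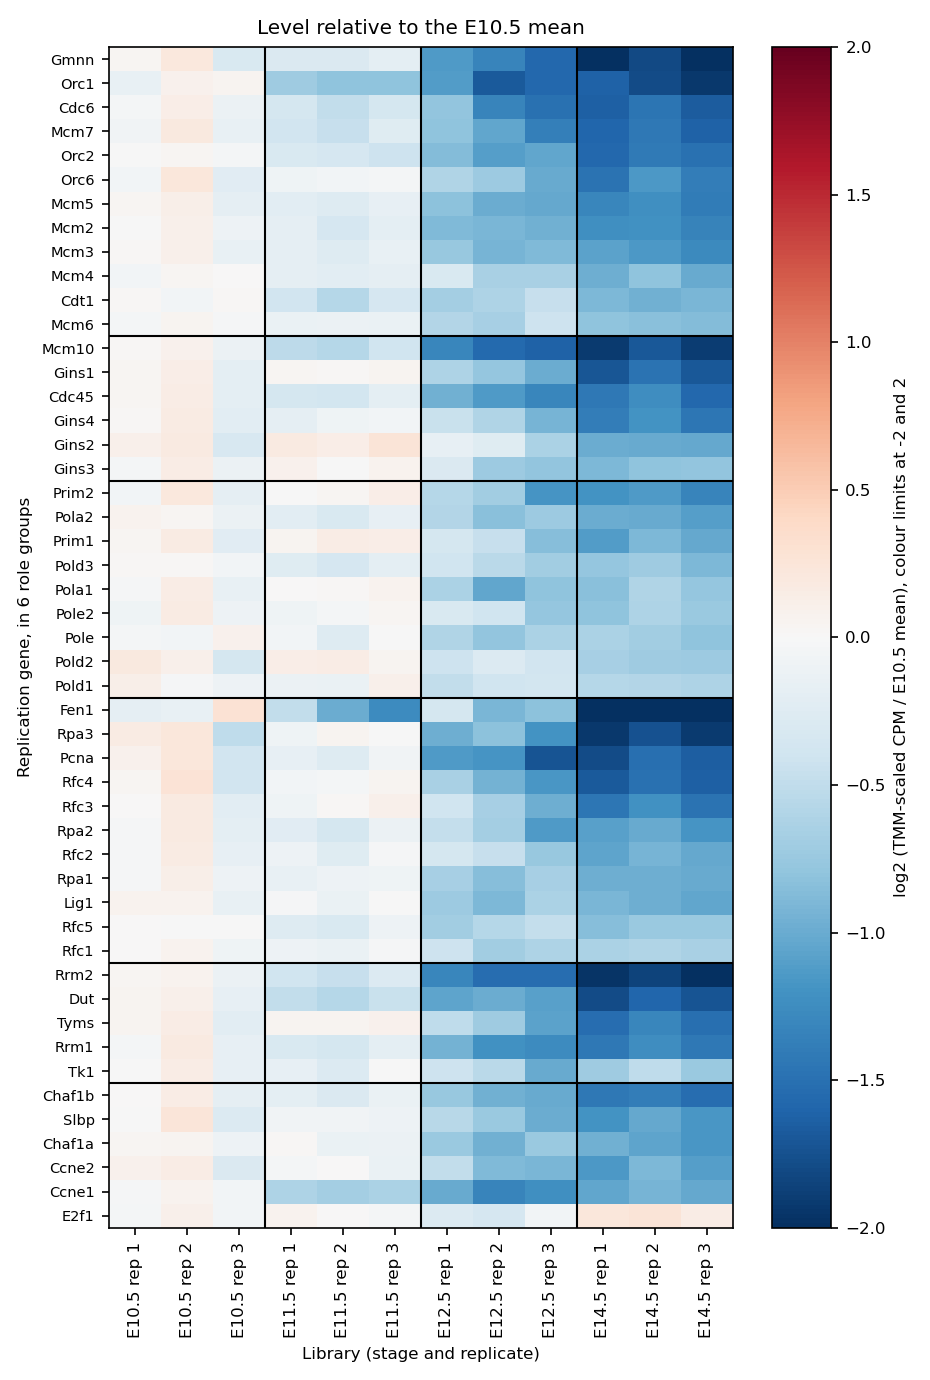
Level of each of the 49 genes (rows, in 6 role groups separated by lines) in each of the 12 libraries (columns), as log2 of the TMM-scaled CPM over the E10.5 mean, with colour limits at -2 and 2. The columns turn blue between E11.5 and E12.5 in nearly every row, and E2f1 in the bottom row is the one that is red at E14.5.

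The licensing genes, which prepare origins in G1, all fell over the whole course (12 of 12), with a median of -1.32, and 4, 11 and 11 fell at the successive steps. Gmnn encodes geminin, which binds Cdt1 and blocks a second round of licensing, and it had the largest fall of the group. Its level was 123, 138 and 96.1 in the E10.5 libraries, 97.1, 97.7 and 104 at E11.5, 54.4, 47.5 and 40.0 at E12.5, and 25.2, 34 and 26.2 at E14.5. The E10.5 and E11.5 libraries overlapped, and every later stage lay below the one before. Gmnn fell 4.18-fold from E10.5 to E14.5 (log2 -2.06, SE 0.15, adjusted p = 6.128e-08), with its largest step at E12.5 against E11.5 (log2 -1.07, SE 0.15, adjusted p = 0.000102). Its target Cdt1, the loader of the Mcm ring, went 67.4, 64.3 and 68.0, then 50.9, 44.8 and 52.6, then 41.6, 43.6 and 48.1, then 35.6, 34.1 and 35.2. Cdt1 fell at the first step (log2 -0.43, SE 0.08, adjusted p = 0.00164), while its E12.5 libraries overlapped those of E11.5 (log2 -0.15, adjusted p = 0.129). Orc1, the subunit of the origin recognition complex that varies through the cycle, fell by 1.77 on the log2 scale over the course and had the largest first step of the group (log2 -0.77, SE 0.14, adjusted p = 0.00119).

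The 6 subunits of the Mcm2 to Mcm7 helicase ring fell over the course by between 0.83 (Mcm6) and 1.54 (Mcm7) on the log2 scale. Mcm2 was measured at 371, 400 and 347 in the E10.5 libraries, 327, 295 and 327 at E11.5, 202, 198 and 192 at E12.5, and 159, 162 and 148 at E14.5. No 2 neighbouring stages overlapped in Mcm2, and each of its 3 steps was called (log2 -0.24, -0.68 and -0.34). Mcm5 went 404, 427 and 345, then 338, 328 and 351, then 223, 197 and 192, then 159, 167 and 149. Its E10.5 and E11.5 libraries overlapped in 1 E11.5 library and the first step was not called (log2 -0.21, SE 0.09, adjusted p = 0.116), while the second was (log2 -0.73, SE 0.09, adjusted p = 6.765e-05). Mcm7, the subunit with the largest fall, went 560, 669 and 527, then 448, 426 and 495, then 337, 284 and 226, then 196, 218 and 190. Every Mcm7 stage lay below the one before, and the fall over the course was 2.91-fold (log2 -1.54, SE 0.14, adjusted p = 3.889e-07).

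Mcm3 went 340, 357 and 300, then 293, 279 and 299, then 196, 174 and 180, then 159, 150 and 138. Mcm4 went 317, 342 and 334, then 291, 286 and 294, then 268, 211 and 212, then 167, 190 and 165. Mcm6 went 359, 384 and 363, then 337, 339 and 337, then 245, 232 and 275, then 212, 206 and 202. In these 3 subunits no library overlapped the stage before, and the first step was not called in any of them (adjusted p from 0.123 for Mcm3 to 0.256 for Mcm6), while both later steps were. The falls over the course were 2.23-fold for Mcm3, 1.90-fold for Mcm4 and 1.78-fold for Mcm6.

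Set per kilobase of exon, the only scale on which levels of different genes are compared here, Mcm7 was highest of the ring at E10.5 (132 ± 16.7, SD, n = 3) and Mcm2 lowest (53.6 ± 3.83). At E14.5 Mcm4 was highest (48.4 ± 3.84), with Mcm7 (45.5 ± 3.31) within its spread, Mcm6 (44.3 ± 0.98) just below that, and Mcm2 lowest (22.5 ± 1.02). The ratio of highest to lowest subunit was 2.47, 2.27, 2.26 and 2.16 at the 4 stages, and 2.33, 1.99, 1.78 and 1.56 when the longest transcript replaced the union of exons. Mcm2 has an exon union of 6956 bases and a longest transcript of 3494, so its place at the bottom of the ring rests on the length chosen. With the longest transcript Mcm7 was the highest at E14.5 as at E10.5 (67.9 ± 4.95, against 48.4 ± 3.84 for Mcm4 and 47.5 ± 1.05 for Mcm6).

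**Figure D4:**
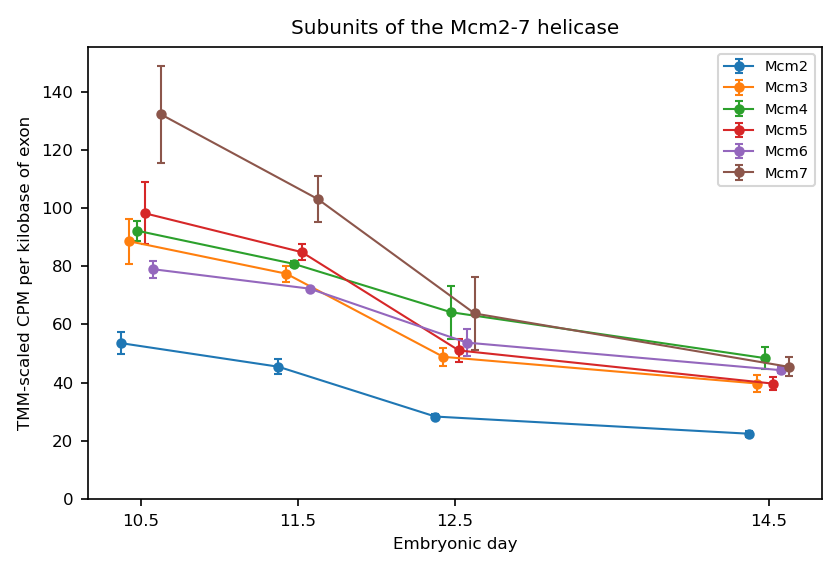
Level of the 6 helicase ring subunits per kilobase of exon (vertical axis, TMM-scaled CPM per kilobase) by embryonic day (horizontal axis), with points for the mean and bars for the SD of 3 libraries. On this length (the union of exons) Mcm7 starts at 132 and ends at 45.5, among Mcm4 and Mcm6, and Mcm2 is lowest throughout; with the longest transcript Mcm7 ends at 67.9, above the other subunits.

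The helicase activation genes open the fork once the ring is loaded, and all 6 fell over the course with a median of -1.37. Mcm10, which helps the activated ring to unwind DNA, fell most: it went 136, 141 and 123, then 92.8, 89.2 and 101, then 53.7, 45.3 and 43.1, then 35.4, 40.9 and 35.5. No neighbouring stages overlapped, and the fall was 3.57-fold (log2 -1.84, SE 0.10, adjusted p = 4.319e-09). Gins3, 1 of 4 subunits of the GINS complex, fell least, with 31.1, 35.3 and 29.3, then 33.8, 31.8 and 33.6, then 26.2, 19.3 and 18.4, then 17.2, 18.3 and 18.4. Its change lay in the second step (log2 -0.63, SE 0.12, adjusted p = 0.000983), with no call at the other two. Its partner subunits continued downward at the third step, Gins1 by 0.85, Gins4 by 0.69 and Gins2 by 0.67 on the log2 scale, where Gins3 had -0.25 (adjusted p = 0.112). Whether the subunits differ from each other at that step was not tested, and Gins2 shares 67.3% of its exon bases with Gse1.

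The primase and polymerase genes had the smallest median of the 6 groups, -0.73 over the course, and all 9 fell. Prim2, the large subunit of primase, fell most, with 89.1, 106 and 81.0, then 91.6, 94.3 and 101, then 62.3, 56.8 and 40.8, then 40.2, 42.2 and 37.0 (whole course log2 -1.21, SE 0.14, adjusted p = 3.656e-06). Pold1, the catalytic subunit of polymerase delta, fell least, with 123, 111 and 106, then 105, 104 and 123, then 81.2, 86.2 and 88.5, then 76.4, 75.5 and 73.8. Pold1 overlapped between E10.5 and E11.5, and fell 1.51-fold over the course (log2 -0.60, SE 0.08, adjusted p = 2.139e-05). After E12.5, 4 of the 9 gave no call: Pola1, the catalytic subunit of polymerase alpha, had 0.08 (SE 0.11, adjusted p = 0.548), Pole and Pole2 of polymerase epsilon had -0.04 and -0.25, and Pold1 had -0.18 (adjusted p = 0.0876). The other 5 were called lower at that step, among them Prim1, the catalytic subunit of primase (-0.47), and Pola2, the second subunit of polymerase alpha (-0.32).

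Pcna was the most abundant of the 49 genes per kilobase at every stage, at 350.6 ± 74.6 at E10.5 and 112 ± 10.6 at E14.5. Its level was 892, 990 and 642 in the E10.5 libraries, 749, 704 and 797 at E11.5, 383, 370 and 253 at E12.5, and 244, 295 and 268 at E14.5. The early libraries all lay above the late ones, and within each pair of stages the libraries overlapped. Pcna fell 3.13-fold over the course (log2 -1.65, SE 0.17, adjusted p = 1.653e-06), and of its 3 steps the second was called (log2 -1.16, SE 0.17, adjusted p = 0.000175). The annotation also holds the pseudogenes Pcna-ps1 and Pcna-ps2, so some of its reads may have been lost or shared in counting.

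All 11 genes of the clamp group fell over the course, with a median of -1.09. RFC, the 5-part clamp loader, ranged from -0.63 for its large subunit Rfc1 to -1.60 for Rfc4. Rfc1 went 233, 244 and 220, then 216, 213 and 229, then 175, 144 and 152, then 150, 154 and 148, so its libraries overlapped at E12.5 and E14.5 (log2 -0.06, adjusted p = 0.598). Rfc3 and Rfc4, small subunits, fell by 0.71 and 0.69 at that step. RPA, the trimer that coats single-stranded DNA, spread in the same way: Rpa3 went 106, 112 and 67.1, then 90, 98.5 and 94.9, then 48.3, 53.6 and 41.6, then 24.9, 28.3 and 25.3. Rpa3 fell 3.63-fold over the course (log2 -1.86, SE 0.16, adjusted p = 2.75e-07), where Rpa1 had -0.98 and Rpa2 -1.09. Per kilobase the highest RPA subunit was 2.41 times the lowest at E10.5 and 1.31 times at E14.5 (3.66 and 1.99 with the longest transcripts).

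Fen1, the nuclease that trims Okazaki fragments, had the largest fitted change of all 49, log2 -2.84 (SE 0.28, adjusted p = 9.038e-07), and the lowest level per kilobase. It was counted at 3.46, 3.51 and 4.77, then 2.78, 1.97 and 1.63, then 3.06, 2.08 and 2.21, then 0.459, 0.608 and 0.567. Of its exon bases, 84.2% are shared with Gm10143 or Tmem258, and the deposited files list between 6.31% and 6.90% of alignments as ambiguous between genes. Its level here is therefore uncertain.

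Over the third step, shorter genes tended to have the larger falls: across the 49 genes, Spearman's rho between exon length and log2 fold change was 0.43, against 0.15 over 18345 tested genes with a length. The same rho was 0.02 at the second step. These are descriptions over genes that share the same libraries, and the part of length in the third step was not tested.

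The nucleotide supply genes make the precursors for synthesis, and all 5 fell over the course with a median of -1.45. Rrm2, the small subunit of ribonucleotide reductase whose supply limits the enzyme through the cycle, went 426, 434 and 380, then 314, 300 and 342, then 167, 143 and 143, then 106, 115 and 101. No neighbouring stages overlapped, all 3 steps were called, and the fall was 3.85-fold (log2 -1.94, SE 0.10, adjusted p = 1.875e-09). Its partner Rrm1 fell 2.58-fold, and the ratio of Rrm2 to Rrm1 per kilobase went from 2.25 at E10.5 to 1.51 at E14.5 (1.41 to 1.06 with the longest transcripts). Tk1, which salvages thymidine, fell least, with 105, 116 and 94.3, then 93.8, 87.3 and 105, then 78.6, 72.5 and 52.4, then 64.5, 73.8 and 62.7. Its E12.5 and E14.5 libraries overlapped (log2 -0.02, adjusted p = 0.924), while Tyms, which makes thymidylate by the other route, fell by 0.70 at that step and Dut, which removes dUTP, by 0.65.

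The S phase entry and histone supply group held the exceptions. Chaf1b, a subunit of the chromatin assembly factor CAF-1, went 104, 115 and 92.0, then 90.7, 84.5 and 94.2, then 61.3, 53.6 and 51.5, then 38.4, 39.9 and 36.2 (whole course log2 -1.44, SE 0.10, adjusted p = 2.512e-08). E2f1, the transcription factor that switches on much of this gene set, went 32.4, 35.6 and 32.1, then 35.0, 33.6 and 32.3, then 27.7, 26.5 and 32.0, then 39.0, 39.9 and 37.0. Its E14.5 libraries lay above all 9 earlier ones. E2f1 rose from E12.5 to E14.5 (log2 0.43, SE 0.09, adjusted p = 0.00124), and this call held under every alternative tried. Its difference between E10.5 and E14.5 was small (log2 0.21, SE 0.09, adjusted p = 0.0404) and its fall from E11.5 to E12.5 likewise (log2 -0.23, SE 0.09, adjusted p = 0.0426), and both calls depended on single libraries. The first of these was lost without E10.5 replicate 1 or 3, any E11.5 library, E12.5 replicate 1, or E14.5 replicate 1 or 2. The second was lost without E10.5 replicate 1, any E11.5 library, E12.5 replicate 1 or 2, or E14.5 replicate 2.

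The 2 E cyclins, which activate Cdk2 at the start of S phase, reached nearly the same whole-course change, -0.999 for Ccne1 and -1.05 for Ccne2, by different steps. Ccne1 went 91.2, 97.0 and 88.9, then 60.5, 57.5 and 59.4, then 45.9, 36.9 and 39.6, then 44.9, 48.2 and 45.5. It fell at the first step (log2 -0.64, SE 0.08, adjusted p = 9.858e-05), where Ccne2 had -0.05 (adjusted p = 0.816), and at the third step it had 0.18 (adjusted p = 0.0924) with overlapping libraries. Slbp, which binds the stem-loop of histone mRNA, fell by 1.12 over the course.

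**Figure D5:**
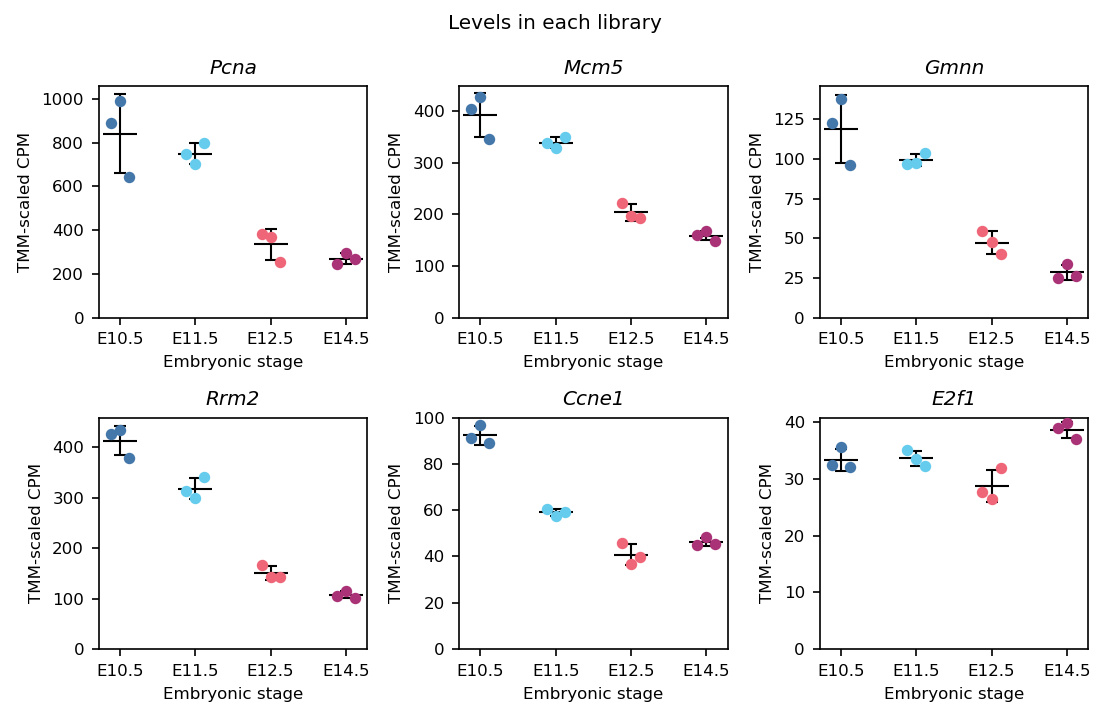
TMM-scaled CPM (vertical axes from 0) of 6 replication genes at the 4 stages, with a point per library, a bar at the mean and whiskers for the SD of 3 libraries. Pcna, Mcm5, Gmnn and Rrm2 drop between E11.5 and E12.5, Ccne1 drops from a mean of 92.4 at E10.5 to 59.1 at E11.5, and E2f1 is highest at E14.5 with a mean of 38.6.

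Libraries of 1 stage differed across most of the genes at once. At E10.5, replicate 2 was highest in 40 of the 49 genes and replicate 3 lowest in 43, and these 2 libraries also had the lowest and highest share of alignments outside genes of that stage. At E12.5 replicate 1 was highest in 38, and at E14.5 replicate 2 in 36, each with the lowest such share of its stage. E11.5 went the other way: replicate 3 was highest in 35 and had the highest share of its stage (2.42%). The median coefficient of variation over the 49 genes was 10.5% at E10.5, 4.51% at E11.5, 12.6% at E12.5 and 6.94% at E14.5. With E10.5 represented by replicate 3 alone, an alternative added after seeing the data in which the spread comes from the other stages alone, the first step gave 5 genes lower and 3 higher (Rpa3, Pold2 and Gins2), and without replicate 3 it gave 14 lower. The first step also fell to 6 genes without E11.5 replicate 2. From E10.5 to E14.5 the count of genes that fell was 48 in each of these settings.

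The step from E11.5 to E12.5 coincides with the rise of alignments outside genes, which separates the libraries of these stages completely. When that share entered the fit as a covariate, 3 genes (Pole, Rrm2 and Mcm10) were called lower at this step and 48 of 49 had a negative log2 fold change, with a median of -0.36, while the share of all tested genes called lower went to 1.56%. The part of the alignments outside genes in the step cannot be told apart from the stage within these 6 libraries, and what they come from was not tested. Against E10.5 replicate 3, which had a share of 4.88%, all 3 E12.5 libraries were lower in 47 of 49 genes (all but Gins2 and Pold2). The same held for 35.2% of tested genes, and the median log2 difference of the 49 genes was -0.60. That comparison rests on 1 E10.5 library and also spans the first step, and the cause of the difference was not tested. Scaling by library total in place of TMM, also added after seeing the data, raised the median of all tested genes by 0.22 at this step and by 0.32 over the course. The replication genes then had medians of -0.45 and -0.79, against 0.28 and 0.38 over all genes, and 38 and 48 were called lower.

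Other genes of the pathway were read from lists that hold none of the 49, and their counts stand beside the 33.8% of tested genes that were lower and 36.6% higher over the course. Of 9 other core subunits, 7 were lower and 1 higher over the course; Mcm8 (-1.55) and Orc5 (-1.34) fell most, and Pold4, the smallest subunit of polymerase delta, was the one higher (0.75, from 3.30 ± 0.209 to 5.53 ± 0.194, SD, n = 3). Of 10 origin firing genes, 8 were lower, led by Dbf4 (-1.49), the activator of Cdc7 kinase, Recql4 (-1.18) and Cdc25a (-1.04). All 15 fork protection and topology genes were lower, with a median of -1.13, led by Rnaseh2c (-1.64), Dna2 (-1.51) and Rnaseh2a (-1.36), which work on RNA primers and flaps. Of 12 further nucleotide genes 11 were lower, among them Dctpp1 (-2.54) and Nme1 (-2.13). In this list Cad, the first enzyme of pyrimidine synthesis, was called higher at the third step (0.32, adjusted p = 0.0377, with overlapping libraries) after 2 steps down. Of 9 histone chaperones 8 were lower, led by Nasp (-1.90), Hat1 (-1.76) and Asf1a (-1.63).

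The regulators were called in both directions. Of 12 E2F and pocket protein genes, 8 were lower and 3 higher over the course. E2f5 (-1.62), E2f4 (-1.06) and E2f3 (-1.01) fell. Rbl2, which encodes the pocket protein p130 of resting cells, rose at each of the 3 steps (1.09, 0.27 and 0.65). It went 7.86, 7.32 and 7.01, then 16.8, 15.8 and 14.6, then 17.2, 17.9 and 21.9, then 30.2, 29.2 and 29.8, with no overlap between neighbouring stages, a change of 2.01 on the log2 scale (SE 0.11, adjusted p = 4.173e-09). Rb1, the retinoblastoma gene, rose at the third step (0.83, adjusted p = 0.000187) and by 0.88 over the course, and E2f2 rose by 0.45. Of 10 translesion and repair polymerases, which copy damaged DNA outside the bulk fork, 4 were lower and 4 higher, close to the shares over all tested genes: Poll (-1.25), Polq (-1.09) and Polb (-0.95) were among those that fell, and Polk (0.51), Rev3l (0.39), Polh (0.36) and Polm (0.35) rose.

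Genes of the later cell cycle gave similar counts. Of 25 G2 and M phase genes, 3, 24 and 19 were lower at the successive steps and 25 over the course, with medians of -0.09, -0.68, -0.47 and -1.25, beside -0.13, -0.66, -0.35 and -1.12 for the 49 replication genes. Whether the lists differ was not tested. Mki67, a marker of cells in cycle, fell from E11.5 to E12.5 (-0.60). It gave no call from E12.5 to E14.5 (-0.05, adjusted p = 0.714 from edgeR). Between those later stages 19 of the 25 G2 and M phase genes were called lower and 6 gave no call. Their median was -0.47, so Mki67 does not stand for the list there.

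Markers of other cells changed over the same days. Summed over 6 genes each, skeletal muscle markers went from between 14.2 and 17.7 CPM at E10.5 to between 157 and 309 at E12.5 and between 1475 and 1875 at E14.5, with all 6 higher at both later steps. Osteoblast markers stayed between 11.4 and 35.8 up to E12.5 and reached between 1514 and 2028 at E14.5. Ibsp made up most of that last sum, with a mean of 1506, and all 5 tested genes of the list were higher at the third step. In the cartilage and endothelium lists, 3 of 5 genes each were lower at the first step. All 5 of each list were higher at the second, where 27.1% of tested genes were higher. The erythroid sum was between 3565 and 4100 at E10.5, 5674 and 7122 at E11.5, 2725 and 3779 at E12.5 and 666 and 1389 at E14.5. Its 6 genes differed: over the course Hbb-y, Hbb-bh1 and Hba-x, the embryonic globins, fell, and Hba-a1 rose by 1.45 on the log2 scale. The mesenchyme sum was between 1214 and 1640 at E10.5, 2002 and 2128 at E11.5, 1312 and 1590 at E12.5 and 1150 and 1235 at E14.5. From E11.5 to E12.5, 3 of its 7 genes were lower and 2 higher, Pdgfra (0.40) and Barx1 (0.38). Over the course 6 of the 7 were lower, where 33.8% of tested genes were, with a median of -0.73. Barx1 was among these (-0.61), and Pdgfra was the 1 higher (1.31). The epithelial sum over 6 genes ranged from 362 to 414 at E10.5 and from 858 to 1308 at E14.5, with 3 genes lower and 3 higher over the course. Krt5 and Krt14 of stratified epithelium were among those higher, and Krt8 (-2.30), Krt18 (-2.53) and Epcam (-0.49) were lower. In the neuron list all 5 genes were lower over the course, and their sum varied within E12.5 alone from 32.9 to 227 CPM. All 5 leukocyte genes were higher over the course, where 36.6% of tested genes were. The part of these changes in the fall of replication genes was not tested.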

How the data were processed

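Bulk poly(A) RNA-seq of 12 libraries (4 stages, 3 per stage) was used. Gene counts were made by the authors, who deposited 1 table of raw counts per library; per the submitters' processing notes the tools included STAR 2.7.3a and HTSeq 0.12.4 with genome build mm10. The strand setting and counting mode are not stated in those notes or the labels. Of 53801 identifiers, 53620 matched a symbol (GENCODE vM21). The 5 closing entries without a gene held 14.3% to 18.6% of listed alignments and were left out. No 2 libraries of a stage agreed within sampling noise (lowest chi-square per degree of freedom 4.69).

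Levels in CPM were computed on TMM-scaled library sizes. Counts were fitted with edgeR 4.0.16 in R 4.3.3 (filterByExpr with minimum count 10, TMM, glmQLFit and glmQLFTest, 1 mean per stage over all 12 libraries, 8 residual degrees of freedom, biological coefficient of variation 0.142), with Benjamini-Hochberg adjustment over 18365 genes and a threshold of 0.05. The edgeR fit alone was tested on simulated counts, for E11.5 against E10.5 only, drawn with the gene dispersions of the fit itself. Alternatives used limma 3.58.1, DESeq2 1.42.0, other scalings, filters and covariates, and each library left out in turn. Genes printed by library are Pcna, Mcm2 to Mcm7, the largest and smallest whole-course change in each role group and any gene called against the rest; Cdt1, Ccne1, Rpa3 and Rbl2 were added after their values were seen. For other lists, up to 3 called genes with the largest change and those called in the other direction are named; 1 gene that this rule takes is not reported here. The 49 genes and all lists were chosen with earlier results of these data known. Whether each pool came from a separate litter is not stated, so the p-values describe how much these RNA samples varied, which may be technical.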

Additional observations from a re-analysis of the deposited data

How the results depend on the processing

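The whole-course count of lower genes was 48 under each alternative but one: with the percentage of alignments outside annotated genes as covariate it was 44. That covariate also gave 18 lower at the first step (10 in the reported fit), 3 at the second (47) and 0 higher over the course (1), and turned Pold2 at the second step to a log2 fold change of 0.0067 (adjusted p = 0.989). With that covariate, 12.1% of all tested genes were lower at the first step and 1.56% at the second. With E10.5 represented by replicate 3 alone, the first step gave 5 lower and 3 higher, with Rpa3 at 0.52 (adjusted p = 0.0203 from edgeR), and the whole course 0 higher; the lone library is assumed to vary like the other stages. Scaling by library total gave 2 higher at the third step, E2f1 and Ccne1. Without a filter on low counts, 0 were higher over the course. The cause was not tested.

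Leaving out 1 library at a time gave 6 to 14 lower at the first step with 0 to 0 higher, 45 to 48 lower at the second with 0 to 0 higher, 22 to 37 lower (22 without E14.5 replicate 3) and 1 to 2 higher at the third, 48 to 48 lower and 0 to 1 higher over the course, and 49 to 49 differing among stages. DESeq2 gave 12, 47, 31 and 48 lower for the 3 steps and the course, limma-voom 10, 47, 33 and 48, median-of-ratios scaling 9, 47, 31 and 48, and the compared stages alone 11, 46, 29 and 48.

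Whether replicate numbers pair the samples was not settled. Correlations of deviations between same-numbered libraries ran from -0.12 to 0.15, and between differently numbered ones from -0.23 to 0.23. At E11.5 against E10.5 the same-numbered values (0.015, 0.079 and 0.086) lay above every differently numbered one. A replicate block gave 10, 46, 35 and 48 lower and 0 higher over the course. With the longest transcript as length, the ratio of highest to lowest of Mcm2 to Mcm7 was 1.99, 1.78 and 1.56 at E11.5, E12.5 and E14.5. In the last 150 bases of each promoter window, around the start, 27.5% of replication promoters held an E2F-type word. The share there was 2.34% for tested genes and 0.0% for G2 and M phase genes. Fen1, the least abundant of the 49 genes, had the lowest depth, with an SE of 0.28 over the course.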
